A study of Mus musculus with 4 samples.

Results

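The genes described here act in the unfolded protein response and in the folding, import and disposal of proteins at the endoplasmic reticulum (ER). They are 35 genes taken from a list by name, and each was represented by the probe set with the highest mean of log2 values over the 4 arrays among probe sets of a single gene symbol. All 35 were on the array, out of 18194 genes, and 33 of them were bright enough to be tested together with 12253 genes in all. Pdia4 and Trib3 were too dim.

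Signals were measured on Affymetrix arrays in CD4 T cells sorted from the connective tissue layer of the mouse large intestine, the lamina propria. Both groups came from mice of the 129/B6 mixed strain with GFP knocked into 1 copy of Gpr15, a chemoattractant receptor gene, so cells of both groups kept 1 intact copy. The GFP-positive group stands for cells that express Gpr15 and the GFP-negative group for cells sorted as lacking it, with 2 arrays each, named replicate 1 and replicate 2. The labels do not give the age or number of mice, and p-values here reflect the spread between these arrays alone. The arrays numbered 1 and 2 differed in genes of the sex chromosomes in both groups, so that spread includes more than technical error. Cells were freed with collagenase before the sort, and the labels name no treatment.

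The ER is where proteins bound for the cell surface or for secretion are threaded through a membrane channel, folded by chaperones and joined by disulfide bonds. When unfolded proteins build up there, the sensors IRE1, PERK and ATF6 start the unfolded protein response. IRE1 splices the mRNA of the transcription factor XBP1, PERK slows translation while favouring the transcription factor ATF4, and ATF6 is cleaved into a transcription factor of chaperone genes. Lymphocytes that secrete much protein, plasma cells above all, are known for their dependence on XBP1. Arrays of this kind report total mRNA of a gene and do not show splicing of Xbp1, cleavage of ATF6 or activity of PERK.

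Sequence elements of this response were searched first in the RefSeq promoter windows of the members (GRCm38.p6, 250 bases before to 50 after each annotated start), because they are how ATF6, XBP1 and ATF4 are known to reach their targets. Windows were matched for 30 of the 35 members by symbol, 31 windows in all. The ER stress element (ERSE), which is CCAAT, then 9 bases of any kind, then CCACG on either strand, was present in windows of 8 members and in 0.119% of 32851 windows of all genes. Its ends CCAAT and CCACG, searched alone, are each far more common, in 37.4% and 32.8% of all windows. The sites are shown for 6 chaperone and degradation genes with the element in capitals and 10 bases on each side.
Hspa5, chr2:34772015-34772053, plus strand: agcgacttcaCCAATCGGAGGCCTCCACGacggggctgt
Calr, chr8:84847065-84847103, minus strand: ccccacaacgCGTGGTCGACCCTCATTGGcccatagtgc
Canx, chr11:50325790-50325828, minus strand: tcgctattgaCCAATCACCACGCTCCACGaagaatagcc
Dnajc3, chr14:118937817-118937855, plus strand: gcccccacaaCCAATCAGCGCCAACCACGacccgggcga
Pdia6, chr12:17266481-17266519, plus strand: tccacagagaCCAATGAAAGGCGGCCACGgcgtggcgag
Syvn1, chr19:6046522-6046560, plus strand: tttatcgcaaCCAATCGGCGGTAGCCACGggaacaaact
Calr and Creld2 held the element in reverse, and Hsp90b1 held it at 2 places, with the site nearer the start in reverse.

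The whole stretch of 250 bases before the start of Hspa5, the gene of the main ER chaperone BiP, is given because it is the textbook target of the response. It lies at chr2:34771840-34772089 on the plus strand and held 1 exact match, in capitals.
Hspa5: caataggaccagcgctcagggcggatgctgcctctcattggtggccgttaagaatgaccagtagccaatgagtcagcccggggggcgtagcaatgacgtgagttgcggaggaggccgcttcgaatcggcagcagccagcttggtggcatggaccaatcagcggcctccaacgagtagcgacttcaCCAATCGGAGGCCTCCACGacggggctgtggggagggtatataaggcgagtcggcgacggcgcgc

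Further elements of the same family were rarer among the members. ERSE-II, which is ATTGG, 1 base of any kind, then CCACG and so shares the CCACG end of the ERSE, was in the window of Herpud1 and in 0.0365% of all windows. The core of the C/EBP-ATF response element (CARE), TGATGNAA, through which ATF4 acts, was in windows of Asns, Chac1, Herpud1 and Trib3 and in 3.97% of all windows. The core of the unfolded protein response element, TGACGTGG, was in 0 member windows and in 0.676% of all windows. The sites of the tested members with CARE or ERSE-II are shown with the element in capitals. The strand named is that of the gene, and Chac1 and Herpud1 held the CARE in reverse, as TTNCATCA.
Asns CARE, chr6:7693215-7693242, minus strand: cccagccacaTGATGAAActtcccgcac
Chac1 CARE, chr2:119351039-119351066, plus strand: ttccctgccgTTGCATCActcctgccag
Herpud1 CARE, chr8:94386307-94386334, plus strand: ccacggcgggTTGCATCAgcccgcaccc
Herpud1 ERSE-II, chr8:94386367-94386397, plus strand: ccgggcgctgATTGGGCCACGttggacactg

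As a set, the members sat close to level between the sorted groups, and the few that stood apart went in different directions. Differences are GFP-positive minus GFP-negative on the scale of log2(signal + 16). Of 33 tested members, 13 had a positive and 20 a negative difference, and the median was -0.047, against 0.075 over all 12253 tested genes. The limma test with Benjamini-Hochberg adjustment over all tested genes called 0 members at an adjusted p under 0.05, against 0.0326% of all genes, with adjusted p values of the members from 0.245 to 0.999. Before adjustment, 2 members were higher at a p under 0.05, Asns and Chac1, and 3 were lower, Eif2ak3, Dnajc3 and Ddit3. That is 6.06% and 9.09% of the members, beside 10.2% and 4.37% of all tested genes. With each array scaled to a common median, 1 member was higher and 7 were lower, beside 4.01% and 13.8% of all genes, and this scaling moved the median of all genes to -0.20 and that of the members to -0.34, so the median of the members minus that of all genes was -0.12 in the deposited scaling and -0.14 under median scaling. Without GFP-negative replicate 1 both counts were 0, beside 9.05% and 2.79% of all genes. Without GFP-positive replicate 2 both were 1, beside 7.41% and 4.13%, and without GFP-positive replicate 1 they were 1 higher and 3 lower, beside 6.37% and 3.51%. With the mean of all probe sets of a gene there were 3 higher and 1 lower, beside 10.3% and 3.85%.

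The 2 arrays of a group lay wholly above or wholly below those of the other for 17 members. Of these 8 were higher in GFP-positive cells (24.2%, beside 28.7% of all tested genes) and 9 were lower (27.3%, beside 18.6%). On the log2(signal + 16) scale no tested member differed by 1 or more in the deposited scaling. Of all genes, 3.40% were higher and 1.31% lower by that much with groups that did not overlap. On the signals themselves the group means were more than 2-fold apart for Asns (81.8 and 178) and Chac1 (24.7 and 55.9). The 95% interval lay inside -1 to 1 for 22 members, so a difference of 1 on this scale lay outside the interval for these, and it reached further for the other 11. The sign was the same within replicate 1 and within replicate 2 for 23 members and opposite for 10.

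The members are bright genes, with 19 of 33 in the brightest of 4 equal bins of tested genes (mean signal above 376) and a median signal of 587 against 105 over all genes. In that bin the median difference of all genes was -0.074, and 32.9% of genes had groups that lay lower and 18.3% groups that lay higher, while in the dimmest bin the median was 0.26. The part of this bend in the members' differences was not tested.

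**Figure D1:**
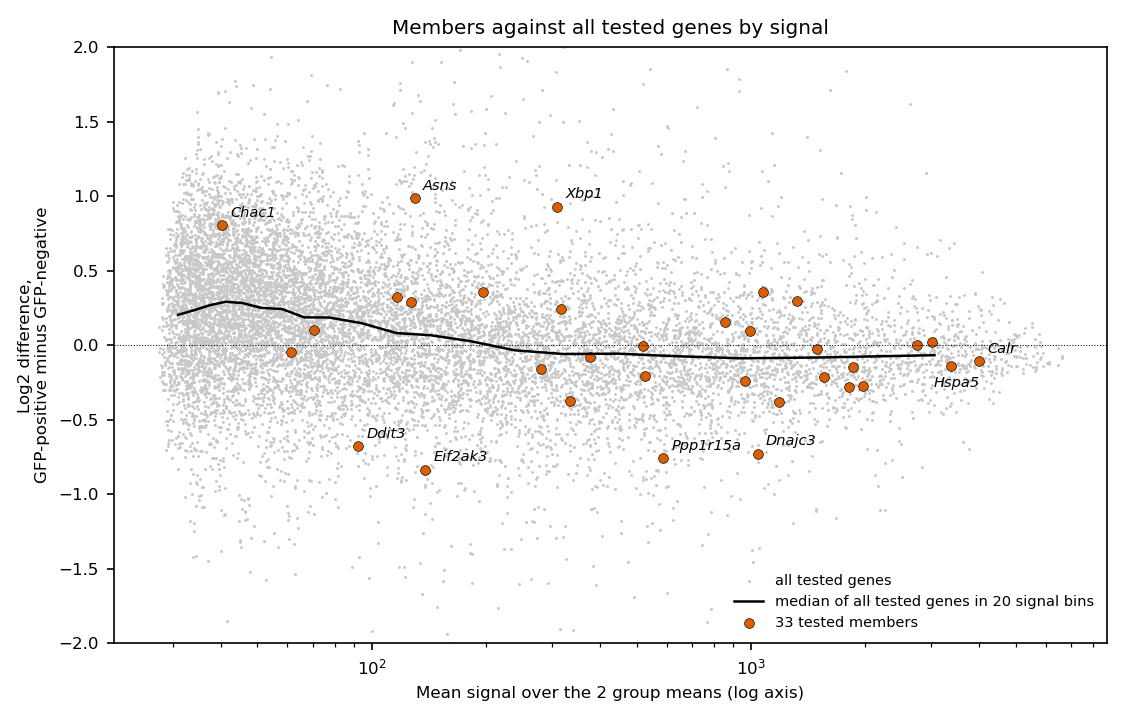
Log2 difference (vertical) against the mean of both group means of the signal (horizontal, log axis) for all tested genes (grey), with the running median of all genes (black) and the 33 tested members (orange); 39 genes beyond 2 or -2 are not drawn. Bright members lay near the running median of bright genes, and Asns, Xbp1, Chac1, Eif2ak3, Dnajc3, Ddit3 and Ppp1r15a stood furthest from it.

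**Figure D2:**
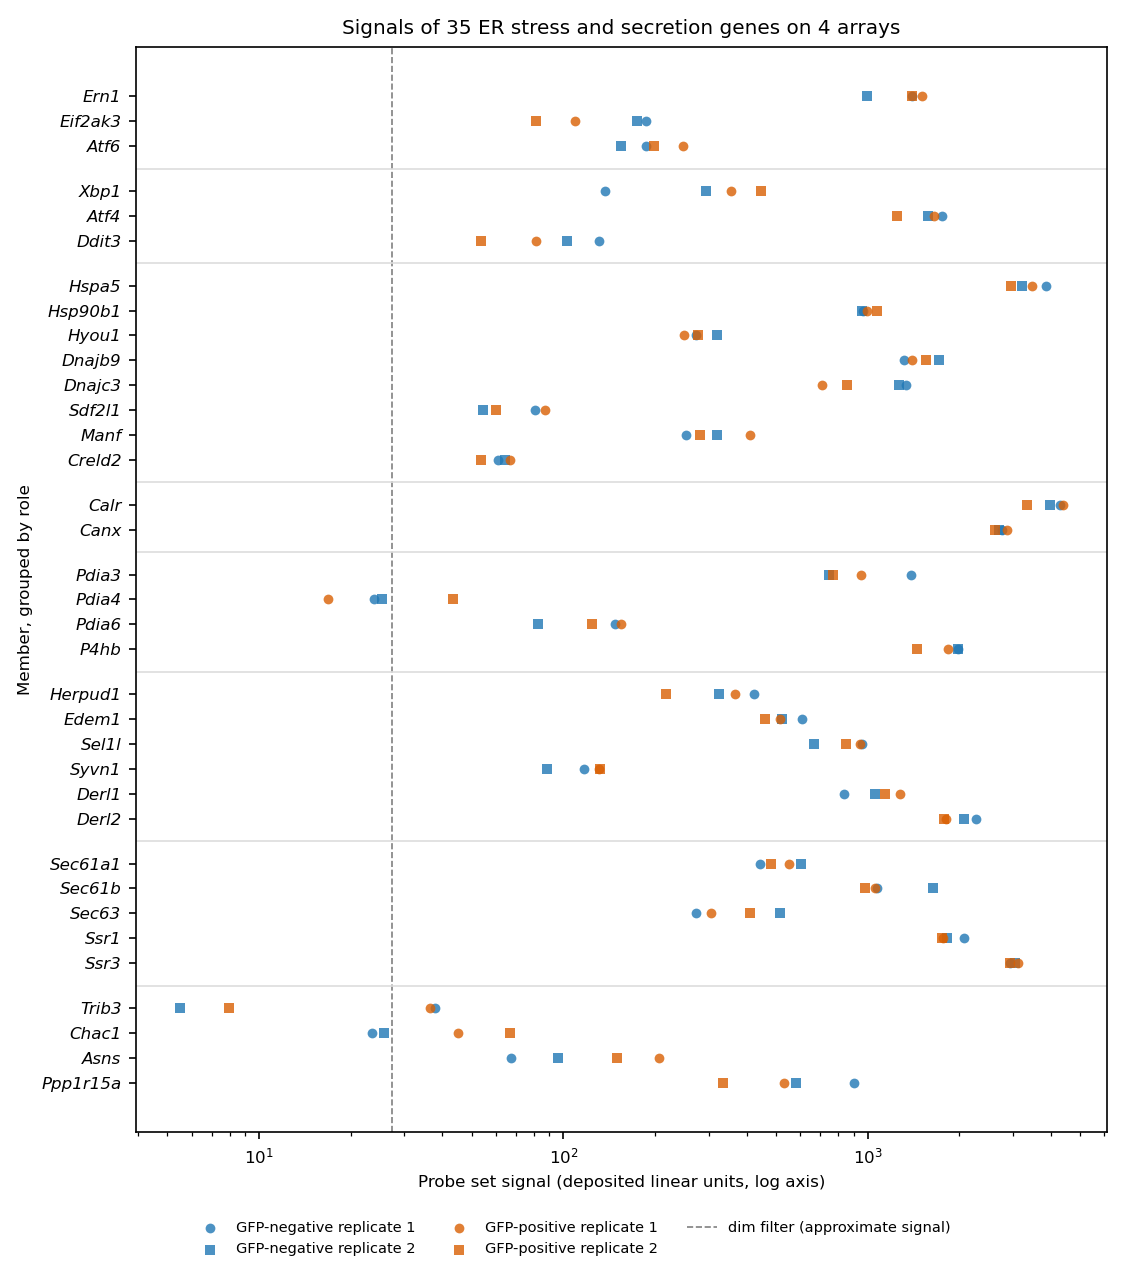
Signal of each member (horizontal, log axis) on the 4 arrays, grouped by role, with GFP-negative arrays in blue, GFP-positive arrays in orange, circles for replicate 1, squares for replicate 2 and the dim filter as a dashed line. Calr, Hspa5, Ssr3 and Canx were the brightest, Trib3 and Pdia4 the dimmest, and colours separated for 17 of the 33 tested members.

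None of the 3 sensor genes was called; the PERK gene had lower signals and the other 2 had higher signals in GFP-positive cells. Eif2ak3, which encodes PERK, measured 186.9 and 175.2 in GFP-negative cells (replicates 1 and 2) and 109.3 and 81.5 in GFP-positive cells. The groups did not overlap, with means of 181 ± 8.31 and 95.4 ± 19.7 (SD, n = 2). The difference was -0.83 (95% interval -1.41 to -0.26, limma adjusted p = 0.249), -0.70 within replicate 1 and -0.97 within replicate 2. Under median scaling it was -1.12. Its other 2 probe sets were below the dim filter, and with them the mean over all 3 was -0.10. Ern1, which encodes IRE1 alpha, was among the brighter members, at 1395 and 994 in GFP-negative and 1509 and 1397 in GFP-positive cells. The difference was 0.30 (-0.32 to 0.92), it was -0.018 under median scaling, and 3 of its 5 probe sets were higher and 2 lower. Atf6 had signals of 187.5 and 154.2 against 247.6 and 199.2, with a difference of 0.36 (-0.22 to 0.93). All 3 Atf6 probe sets were higher, the dimmer ones by 0.66 each, but under median scaling the difference was 0.061.

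The transcription factor genes differed in both directions, and none was called. Xbp1 signals were 137 and 294 in GFP-negative cells and 356 and 447 in GFP-positive cells. The groups did not overlap, yet the GFP-negative arrays differed from each other by more than the GFP-positive ones, with means of 215 ± 112 and 401 ± 64.4 (SD, n = 2). The difference was 0.93 (-0.0013 to 1.86, limma adjusted p = 0.343), 1.28 within replicate 1 and 0.58 within replicate 2. The other 3 Xbp1 probe sets, at mean signals of 226, 191 and 129, differed by 0.14, 0.15 and 0.23. All 4 probe sets were thus higher, but the size rested on the brightest of them, and the mean over the 4 was 0.36. Without GFP-negative replicate 1 the difference was 0.42, and without GFP-negative replicate 2 it was 1.44. Ddit3, which encodes the stress factor CHOP, had signals of 130.5 and 102.5 against 81.4 and 53.8, a difference of -0.68 (-1.33 to -0.02, limma adjusted p = 0.336). Its other probe set, of mean signal 76.5, differed by 0.015, and the mean of both was -0.33. Atf4 was bright in both groups, at 1757 and 1585 against 1651 and 1248. Its groups overlapped, with a difference of -0.22 (-0.81 to 0.38).

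Among genes that ATF4 and CHOP are known to turn on, Asns and Chac1 had higher signals and Ppp1r15a lower ones, again with no call. Asns, the asparagine synthetase gene, had signals of 67.4 and 96.2 in GFP-negative cells and 206 and 149.6 in GFP-positive cells. The groups did not overlap, and this was the widest difference of all tested members on this scale, 0.99 (0.32 to 1.65, limma adjusted p = 0.245). It was 1.41 between the arrays numbered 1 and 0.56 between those numbered 2. The other Asns probe set was higher too, by 0.60. Chac1, whose product degrades glutathione, had signals of 23.5 and 25.8 against 45.2 and 66.7, a difference of 0.81 (0.21 to 1.41, limma adjusted p = 0.268). Its GFP-negative signals lay below the signal of about 27.3 that marks the dim filter, so it was tested only through the group in which it was higher. Ppp1r15a encodes GADD34, which ends the PERK signal by helping to remove phosphate from the initiation factor eIF2 alpha. Its signals were 900 and 582 against 530 and 336, with groups that did not overlap and a difference of -0.76 (-1.57 to 0.06, limma adjusted p = 0.369), nearly equal within both replicate numbers at -0.75 and -0.77. It was -1.07 under median scaling, -0.45 without GFP-negative replicate 1 and -0.44 without GFP-positive replicate 2. Trib3, a CHOP target, was too dim on average to be tested, at 37.8 and 5.51 against 36.4 and 7.98, with both arrays numbered 1 above the dim filter.

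**Figure D3:**
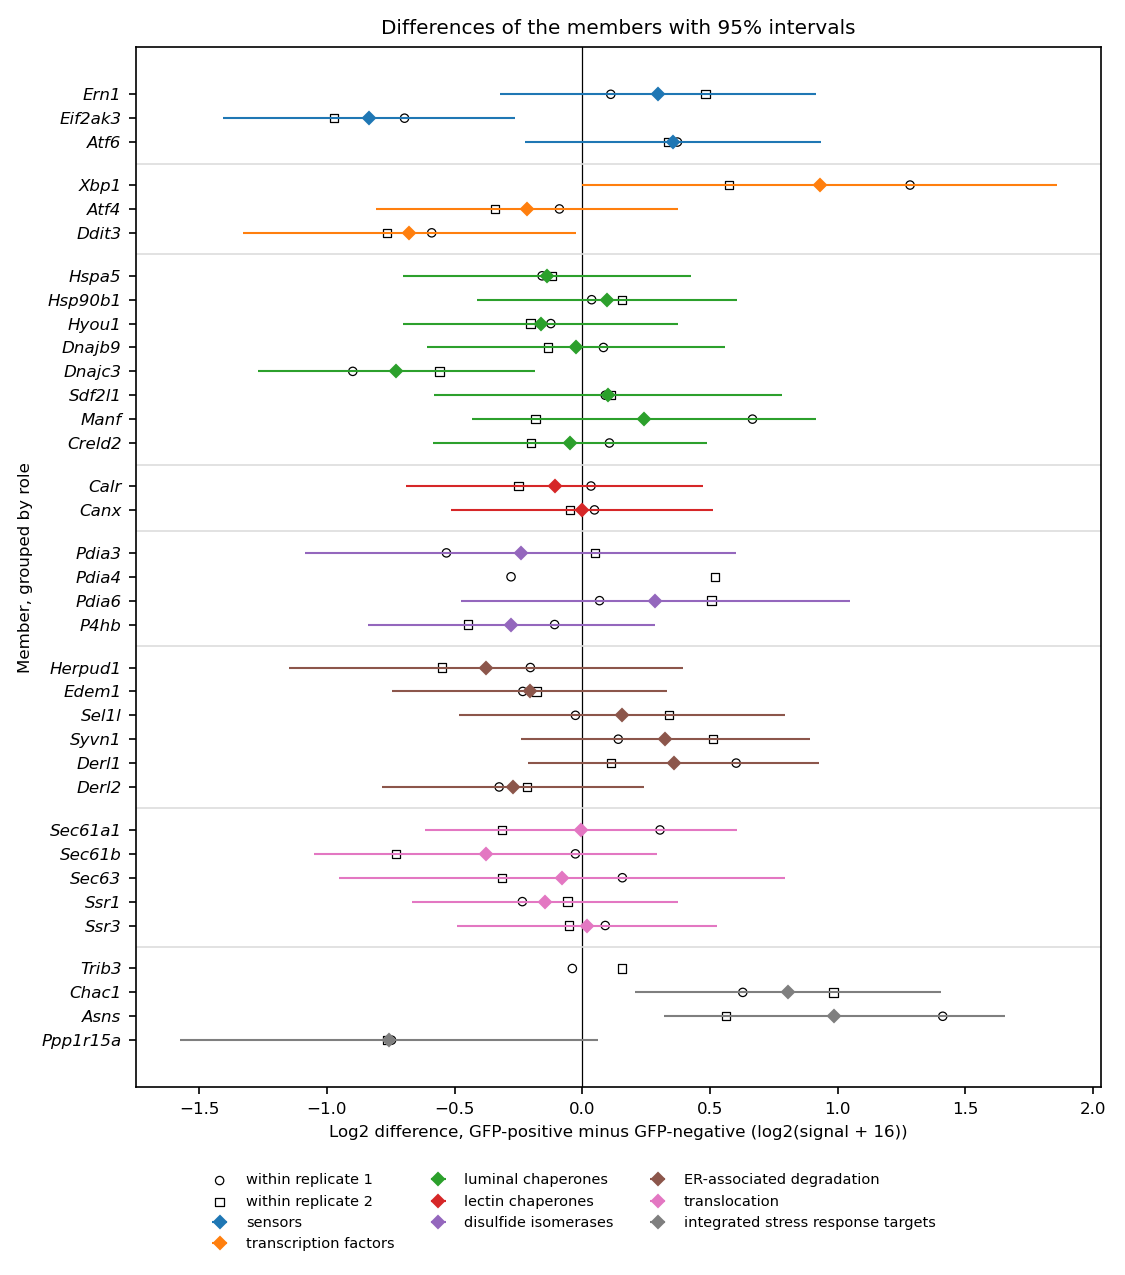
Log2 difference of each member (diamond, coloured by role) with its 95% interval from the limma fit, and the differences within replicate 1 (open circle) and within replicate 2 (open square). Intervals of 5 members excluded 0, namely Asns and Chac1 above it and Eif2ak3, Dnajc3 and Ddit3 below it; Pdia4 and Trib3 were not tested and show open symbols only.

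The chaperones of the ER lumen were nearly level in the deposited scaling, with 1 exception. Hspa5 had signals of 3858 and 3215 in GFP-negative and 3458 and 2957 in GFP-positive cells, overlapping groups with a difference of -0.14 (-0.70 to 0.42). Hsp90b1, the gene of GRP94, had 967 and 958 against 992 and 1070, a difference of 0.10 (-0.41 to 0.61) that was -0.22 under median scaling. Dnajb9, a cofactor of BiP and a known target of XBP1, had 1318 and 1710 against 1397 and 1556, a difference of -0.026 (-0.61 to 0.56). Hyou1 differed by -0.16, Sdf2l1 by 0.10, Creld2 by -0.047 and Manf by 0.24. Manf was higher within replicate 1 (0.67) and lower within replicate 2 (-0.18). Under median scaling, where the median of all genes was -0.20, Hspa5 and Hyou1 each differed by -0.46, Dnajb9 by -0.34 and Creld2 by -0.30. Sdf2l1 then differed by -0.16 and Manf by -0.062. The exception was Dnajc3, which encodes p58IPK, a BiP cofactor also known to restrain PERK. Its signals were 1337 and 1268 in GFP-negative and 710 and 856 in GFP-positive cells. The groups lay well apart, with means of 1303 ± 48.7 and 783 ± 103 (SD, n = 2), and the difference was -0.73 (-1.27 to -0.19, limma adjusted p = 0.268). All 5 Dnajc3 probe sets were lower, between -0.83 and -0.14, and the difference kept its sign in all 11 alternative settings, between -1.04 and -0.50.

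**Figure D4:**
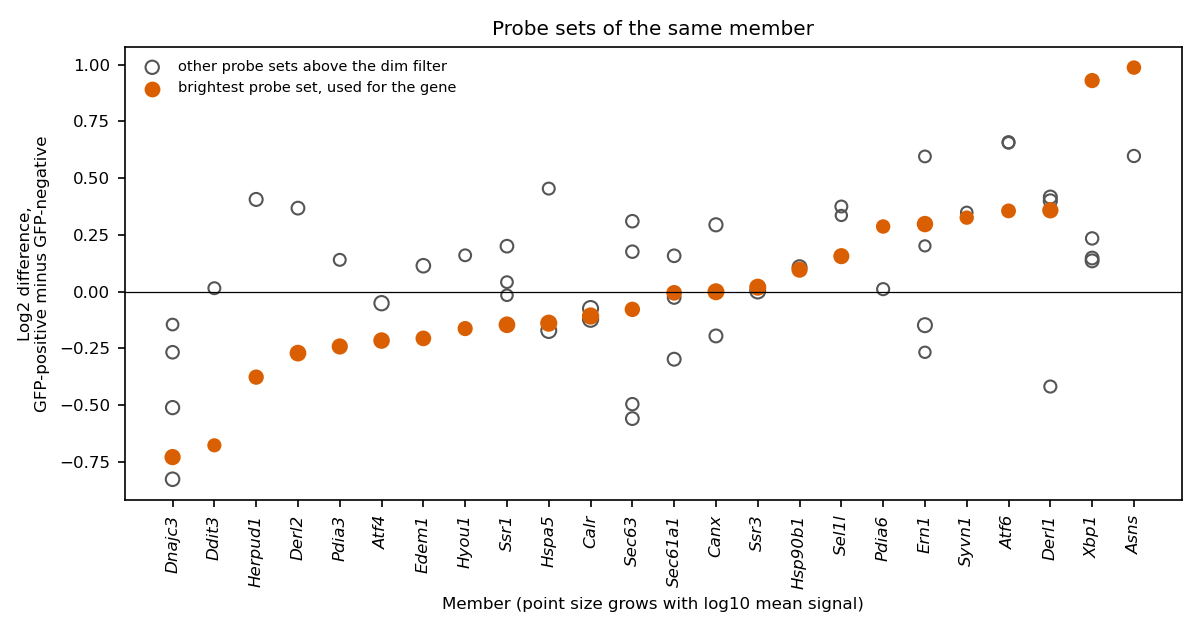
Log2 difference (vertical) of every probe set above the dim filter for members with more than 1 such probe set, ordered by the difference of the brightest probe set (filled), with other probe sets open and point size growing with signal. All probe sets lay on the same side for Dnajc3, Atf6, Asns and Xbp1, while those of Ern1, Sec63, Derl1 and Hspa5 lay on both sides of 0.

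The lectin chaperone genes Calr and Canx, whose products hold newly made glycoproteins, were among the brightest members and level in the deposited scaling. Calr had signals of 4278 and 3985 against 4382 and 3351, a difference of -0.11 (-0.69 to 0.47) with all 3 probe sets between -0.12 and -0.074. Canx had 2772 and 2712 against 2867 and 2621, a difference of -0.00038 (-0.51 to 0.51). Under median scaling Calr differed by -0.43 and Canx by -0.32, beside a median of -0.20 over all genes. Among the disulfide isomerases, P4hb had 1987 and 1983 against 1843 and 1449. Its GFP-positive arrays were both lower, by -0.28 (-0.84 to 0.28), and by -0.59 under median scaling. Pdia3, the partner of calreticulin and calnexin, had 1386 and 746 against 954 and 772, a wide spread within GFP-negative cells and a difference of -0.24 (-1.09 to 0.60). Pdia6 differed by 0.29 (-0.48 to 1.05), and Pdia4 was dim, between 16.9 and 43.3 on the 4 arrays.

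Genes of ER-associated degradation, which returns misfolded proteins to the cytosol, went both ways with small differences. Derl1, a channel component, had signals of 834 and 1054 against 1276 and 1142, and Syvn1, the ubiquitin ligase HRD1, had 116.9 and 88.1 against 130.6 and 132.4. Both had groups that did not overlap, with differences of 0.36 (-0.21 to 0.93) and 0.33 (-0.24 to 0.89), which were 0.043 and 0.046 under median scaling. The other Derl1 probe sets differed by 0.40, 0.42 and -0.42. Derl2 and Edem1 were lower without overlap. Derl2 had 2266 and 2069 against 1805 and 1779, a difference of -0.27 (-0.78 to 0.24) that was -0.59 under median scaling. Its dimmer probe set differed by 0.37. Edem1, which marks glycoproteins for disposal, differed by -0.21 (-0.74 to 0.33), and by -0.52 under median scaling. Its other probe set, of mean signal 504.5, differed by 0.11 with overlapping groups, and the mean of both was -0.046. Sel1l, the partner of HRD1, and Herpud1 overlapped between groups, with differences of 0.16 (-0.48 to 0.79) and -0.38 (-1.15 to 0.40), and the other probe set of Herpud1 differed by 0.41. The Herpud1 difference was -0.73 without GFP-positive replicate 1 and -0.020 without GFP-positive replicate 2.

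Translocation genes were bright and mostly level in the deposited scaling. Ssr3, a subunit of the translocon-associated complex, had signals of 2937 and 3048 against 3128 and 2942, a difference of 0.020 (-0.49 to 0.53), and Ssr1 one of -0.15 (-0.67 to 0.38). Sec61b, a subunit of the protein-conducting channel, had 1075 and 1640 against 1055 and 983. Its groups did not overlap, but the difference of -0.38 (-1.05 to 0.29) rested on GFP-negative replicate 2 and was -0.077 without that array. Sec61a1 and Sec63 overlapped between groups, at -0.0051 (-0.61 to 0.60) and -0.078 (-0.95 to 0.80). Under median scaling the differences of the translocation genes ran from -0.69 for Sec61b to -0.30 for Ssr3.

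Set beside the promoter elements, the 8 members with an ERSE had differences from -0.73 for Dnajc3 to 0.33 for Syvn1, with a median of -0.023, 3 positive and 5 negative. The 20 tested members with a window and no ERSE ranged from -0.83 to 0.99, with a median of -0.18. The 3 tested members with a CARE were Asns at 0.99, Chac1 at 0.81 and Herpud1 at -0.38. A match is a description of the letters and does not show that a factor was bound.

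**Figure D5:**
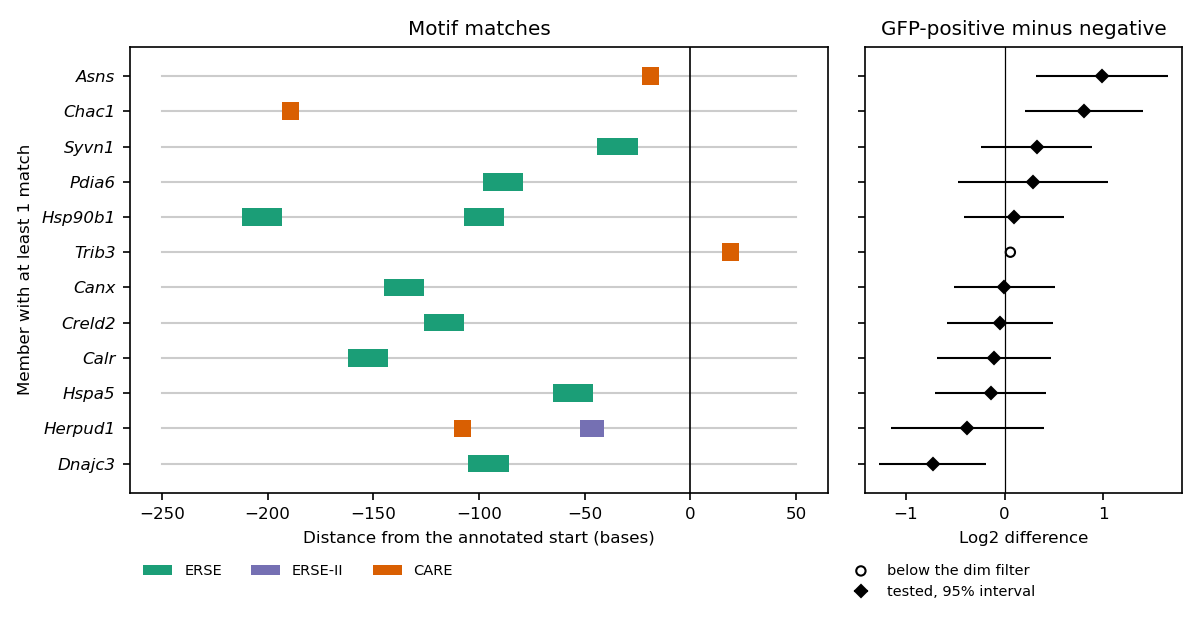
Left, positions of ERSE, ERSE-II and CARE matches in bases from the annotated start (vertical line) for the 12 members with a match; right, the log2 difference of the same member with its 95% interval, or an open circle for Trib3, which was below the dim filter. Members with an ERSE spread on both sides of 0, from Dnajc3 to Syvn1.

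Beyond the members, 140 other genes of the ER and of its stress signalling were listed, of which 127 were tested. Their median difference was 0.016, 66 were positive and 61 negative, 0 were called. Before adjustment 6 had a p under 0.05 with a positive and 3 with a negative difference, smaller shares than the 10.2% and 4.37% of all tested genes. Groups did not overlap for 25 higher (19.7%) and 30 lower (23.6%) genes, beside 28.7% and 18.6% of all tested genes. By function the medians were 0.17 for 21 folding and redox genes, -0.087 for 19 degradation genes and 0.026 for 17 translocon and signal peptidase genes. They were -0.064 for 15 N-glycosylation genes, 0.12 for 21 ER exit and retrieval genes, 0.077 for 12 stress signalling genes and 0.027 for 22 ATF4 targets.

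These 9 genes were picked for an unadjusted limma p under 0.05 and groups that did not overlap. Intervals that exclude 0 follow from that choice. Stt3b, a catalytic subunit of the enzyme that attaches N-glycans, had signals of 1570 and 1692 against 853 and 917, a difference of -0.87 (-1.39 to -0.36, limma adjusted p = 0.221), equal within both replicate numbers at -0.87. Of the ATF4 targets, Sesn2, a stress-induced inhibitor of growth signalling, had 42.7 and 25.6 against 87.3 and 90.0, a difference of 1.08 (0.46 to 1.70, limma adjusted p = 0.214). Mthfd2 of mitochondrial folate metabolism and Psat1 of serine synthesis were lower, at 612 and 628 against 316 and 400 and at 699 and 623 against 453 and 441. Their differences were -0.78 (-1.33 to -0.22) and -0.55 (-1.07 to -0.03). Creb3l2, a membrane-bound transcription factor related to ATF6, and Eif2ak2, the kinase PKR that acts on eIF2 alpha like PERK, were higher, by 0.94 (0.26 to 1.62) and 0.67 (0.16 to 1.18). Dnajc1, Txndc5 and Man1b1 were higher by 0.69, 0.54 and 0.50. With the mean of probe sets the differences were 0.52 for Sesn2, -0.36 for Mthfd2, -0.33 for Psat1, 0.23 for Eif2ak2, 0.33 for Dnajc1 and 0.35 for Txndc5. Under median scaling they were 0.38 for Eif2ak2, 0.39 for Dnajc1, 0.30 for Txndc5, 0.28 for Man1b1 and -0.86 for Psat1. Dnajc1 was 0.40 without GFP-negative replicate 1. None of these 9 genes was called, with limma adjusted p values from 0.214 to 0.343.

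The sort and the cell type were checked once. Gpr15 itself had signals of 146 and 161 against 619 and 729. The GFP-negative signals thus also lay above the dim filter of about 27.3, so the groups differ in the level of Gpr15 signal. The Gpr15 difference of 2.02 (1.48 to 2.56) had a limma adjusted p of 0.0829 and was not called either. Markers of T cells were bright, with Cd3e between 4717 and 5615, Cd28 between 2881 and 3214 and Cd4 between 501 and 587, and the 8 T cell markers on the array summed to between 14820 and 17330 on each array. CD8 T cell markers were dim, with Cd8a between 32.5 and 60.2 and Cd8b1 between 12.3 and 44.3. All arrays had a 2% trimmed mean of 150, and their medians were 37.0 and 36.1 in the GFP-negative and 46.0 and 45.2 in the GFP-positive group. Replicate 1 and replicate 2 differed in Xist (4172 and 4313 against 55.1 and 112) as female and male cells do, in both groups.

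Markers of other gut cells differed between arrays. Of 11 B and plasma cell markers, 10 were above the dim filter, and they summed to 4927 and 6191 in GFP-negative cells and 7640 and 5127 in GFP-positive cells. Most of that sum was Jchain, a plasma cell gene, at 3852 and 4455 against 6219 and 4093, while the B cell gene Cd79a lay between 9.92 and 61.2. Pou2af1, a B cell transcriptional coactivator, was the next brightest and went the other way without overlap, at 618 and 1153 against 529 and 431. Its difference of -0.80 (-1.65 to 0.041) was the only negative one of the 10, and 9 were positive. The median of the 10 was 0.78 within replicate 1 and -0.058 within replicate 2. Mzb1, Derl3 and Ms4a1 were higher without overlap, Mzb1 at 53.4 and 79.5 against 127 and 93.3. That is 3 of 10 higher, beside 28.7% of all tested genes. Derl3 had signals of 7.155 and 33.5 against 48.0 and 37.3, and Cd79b 9.81 and 47.5 against 65.7 and 47.3. Both passed the dim filter only through the GFP-positive group, so their direction was partly set by the filter. The Xbp1 probe set used had its lowest signal on GFP-negative replicate 1, where Jchain was lowest. Its highest was on GFP-positive replicate 2, where Jchain was second lowest. The other 3 Xbp1 probe sets were highest on GFP-positive replicate 1, where Jchain was highest. Epithelial markers, 16 of 19 above the filter, summed to 1373 and 1578 against 4393 and 1342. The sum was highest on GFP-positive replicate 1. Asns, Manf, Ern1, Atf6, Calr, Canx, Pdia6, Derl1, Ssr3, Sdf2l1 and Creld2 of the tested members were highest there too. The brightest epithelial markers were Zg16, at 172 and 221 against 941 and 82.4, and Lgals4, at 258 and 205 against 392 and 185. Gene by gene, 13 of the 16 had a positive and 3 a negative difference. Without overlap 7 were higher and 0 lower, beside 28.7% and 18.6% of all tested genes. The widest difference was that of Epcam, 1.64, at 72.3 and 42.5 against 246.5 and 174.6. Myeloid markers, 11 of 16 above the filter, summed to 997 and 1439 against 1543 and 3433, highest on GFP-positive replicate 2. Of the tested members, Chac1, Xbp1, Hsp90b1 and Syvn1 were highest there. All 11 had a positive difference, with a median of 0.51 within replicate 1 and 0.80 within replicate 2. Without overlap 5 were higher and 0 lower, beside 28.7% and 18.6% of all tested genes. The widest difference was that of Csf1r, 1.93, at 7.73 and 10.7 against 35.5 and 164. Csf1r and Cd14 passed the dim filter only through the GFP-positive group. The brightest myeloid markers were Cst3, at 562 and 492 against 852 and 720, and H2-Aa, at 70.0 and 345 against 180 and 826. Stromal and endothelial markers, 7 of 9 above the filter, summed to 489 and 1169 against 710 and 1019. Col1a1 had 114 and 545 of this against 243 and 419, and Col3a1 67.9 and 211 against 138 and 223. No marker of these lists had a signal of 0 on any array, but neither did any other probe set. The lowest signals of the arrays ran from 0.148 to 0.207, so a signal above 0 does not show that a cell type was present. Without GFP-positive replicate 1 the difference of Asns was 0.78, and without GFP-positive replicate 2 that of Chac1 was 0.59 and that of Xbp1 0.77. The part of these cells in the members' signals was not tested, and in such sorted bulk samples fewer cells of a type and less RNA per cell cannot be told apart.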

How the data were processed

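The authors deposited intensities on a linear scale, 1 per probe set for each of 4 arrays, made per the labels' protocols from Trizol-extracted, biotin-labelled total RNA. The software that summarised them is not given in the sources used here. Trimmed means were equal and medians unequal between arrays, as after scaling each array by 1 factor; such scaling does not remove a trend of the differences with brightness. Groups and replicate numbers came from the sample titles; the design text once writes the GFP-negative cells as lacking CD4, and the titles were followed.

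Of 45101 probe sets, 34958 had 1 gene symbol in the platform annotation, which can be old. Signals were taken to log2 after adding 16, which understates changes of dim genes. Genes were tested where the mean log2 value of their probe set exceeded the 40th percentile, taken without control probe sets. The two-sided test was that of limma 3.58.1 in R 4.3.3 (group as the only term, 2 residual and 3.74 prior degrees of freedom), with Benjamini-Hochberg adjustment over all 12253 tested genes. Intervals are 95% intervals of that fit. The fit was tested on simulated data with independent noise on each array. Deviations of same-numbered arrays here had a correlation of 0.198, which that simulation did not include. The number of arrays limits the precision.

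The members, the other gene lists and the tests were chosen with earlier results of these data known. Named were all members, up to 3 genes per direction of each further ER list with an unadjusted p under 0.05 and groups that did not overlap, and the 2 brightest markers of each cell type. Cd4, Cd79a, Xist and Eif2s3y were added for the check of the samples. Epcam, Mzb1, Derl3, Ms4a1, Cd79b, Csf1r and Cd14 and the genes of the closing section were added after their values were seen. Promoter windows of 300 bases are from RefSeq (GRCm38.p6), and motifs were matched exactly on both strands. Alternatives were a pseudocount of 1, no dim filter, quantile normalization, median scaling, the replicate number as a block, the mean of probe sets and leaving out each array. Choosing probe sets and filtering by linear means was added after the data were seen.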

Additional observations from a re-analysis of the deposited data

How the results depend on the processing

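No member was called in any of the 11 alternative settings, and over all genes the calls went from 4 to 8 with the mean of probe sets and to 0 in the other settings. With 2 arrays per group, leaving 1 out rests on the assumption that the lone array varies like the other group. In the labels the replicate numbers are only numbers. Same-numbered arrays of both groups shared their level of the sex genes Xist and Eif2s3y, as a hint from the data, and deviations of same-numbered arrays had a correlation of 0.198. The fit with the replicate block gave 3 higher and 4 lower members at an unadjusted p under 0.05 (12.3% and 5.12% of all genes), a median of -0.047 and a smallest limma adjusted p of 0.194 among members, and changed no call of a member. The members it added were Xbp1 (limma unadjusted p = 0.0151) among the higher and Ppp1r15a (limma unadjusted p = 0.0142) among the lower. Under median scaling the counts of higher and lower members were 1 and 7 and the median of the members -0.34. With the mean of probe sets 1 member was lower. Leaving out 1 array gave 0 to 3 higher and 0 to 3 lower members and medians from -0.10 to 0.043. Some differences that were not called changed sign. Under quantile normalization these were Dnajb9 (0.048), Sdf2l1 (-0.067), Canx (0.054) and Sec61a1 (0.064). Under median scaling they were Ern1 (-0.018), Hsp90b1 (-0.22), Sdf2l1 (-0.16), Manf (-0.062), Sel1l (-0.16), Ssr3 (-0.30), Jchain (-0.035) and Lgals4 (-0.083). With the mean of probe sets they were Hspa5 (0.048), Hyou1 (0.029), Canx (0.033), Herpud1 (0.015), Derl2 (0.049), Ssr1 (0.020) and Cd8a (-0.13). Their causes were not tested. Without 1 array the lowest and highest values of those that changed sign were -0.065 and 0.064 for Canx, -0.68 and 0.20 for Pdia3, -0.024 and 0.064 for Ssr3, -0.21 and 0.16 for Dnajb9, -0.13 and 0.33 for Sdf2l1, -0.077 and 0.65 for Pdia6, -0.10 and 0.41 for Sel1l, -0.22 and 0.21 for Sec61a1, -0.52 and 0.36 for Sec63, -0.018 and 0.50 for Manf, -0.17 and 0.076 for Creld2 and -0.30 and 0.085 for Calr. For markers of other cells they were -0.018 and 0.58 for Jchain, -1.10 and 2.18 for Zg16, -0.29 and 0.73 for Lgals4, -0.74 and 1.37 for Col1a1 and -0.24 and 1.19 for Col3a1. Eif2ak3, Dnajc3, Ddit3, Ppp1r15a, Asns, Chac1, Xbp1, Atf6, Derl1 and Syvn1 kept their sign in all 11 settings, the last 3 of them near 0 under median scaling (0.061, 0.043 and 0.046).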

Other observations

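Prdx4, an ER peroxidase, had signals of 337 and 340 in GFP-negative and 485 and 482 in GFP-positive cells, a difference of 0.49 with 0.50 and 0.49 within the replicate numbers (limma adjusted p = 0.346). Ero1a, the oxidase that recharges the disulfide isomerases, was bright at 3390 and 3456 against 4256 and 4501, a difference of 0.35 (limma adjusted p = 0.487). Spcs2, a signal peptidase subunit, had 648 and 522 against 991 and 681, a difference of 0.49 (limma adjusted p = 0.468). The amino acid transporter genes Slc3a2 and Slc7a5, listed as ATF4 targets, had differences of -0.33 and -0.36, with groups that did not overlap for either. Under median scaling the differences were 0.19 for Prdx4, 0.035 for Ero1a, 0.175 for Spcs2, -0.65 for Slc3a2 and -0.66 for Slc7a5, and with the mean of probe sets Prdx4 had 0.32. Spcs2 was 0.22 without GFP-positive replicate 1 and 0.75 without GFP-positive replicate 2, Slc7a5 -0.10 and -0.63, and Slc3a2 was -0.19 without GFP-negative replicate 2. These genes were chosen after their values were seen, and none was called.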
